A study of Homo sapiens with 4 samples.

Results

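Splicing of the kinesin and dynein motor genes was examined in U87MG cells, an established human glioblastoma line, in which the splicing factors RBFOX1 and RBFOX2 had been targeted with a decoy oligonucleotide. The members were all splicing events of genes named KIF, KLC, DYNC or DYNL followed by a family number or letter, which came to 542 of the 121269 events in the tables and to 49 of the 12219 genes. Of these, 405 were skipped exons, 110 were pairs of mutually exclusive exons, 18 were alternative 3′ splice sites, 5 were alternative 5′ splice sites and 4 were retained introns. The gene count includes KIF9-AS1, an antisense gene that matched by name and is no motor gene. It had 1 event, which was not tested. Cells were transfected, with lipofectamine, with 2.5 µM of RBFOXi, a single-stranded 2′-O-methyl RNA that carries repeats of the RBFOX motif, or of the scrambled oligonucleotide SCRM at the same dose. Each oligonucleotide was represented by 2 RNA-seq libraries, and the oligonucleotide of RBFOXi replicate 1 carried a Cy5 dye. The labels call the line a likely glioblastoma. The comparison asked which motor exons are spliced differently when the decoy occupies RBFOX1/2.

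Kinesins walk along microtubules with an ATP-driven motor domain, most of them towards the plus end, and differ in the tail that binds cargo, other chains or other microtubules. Cytoplasmic dynein is the main motor towards the minus end and is built from heavy chains that hold the motor, and from intermediate, light intermediate and light chains that bind cargo and dynactin. RBFOX proteins bind UGCAUG in introns, and are known to favour inclusion of an exon from a site downstream of it and skipping from a site upstream. Alternative exons of KIF13A, KIF21A, KIF23, KIF1B and DYNC1I2 are among the better known ones of motor genes.

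No splicing event of a motor gene passed the test, and among the exons with the largest differences were in-frame cassettes of KIF21A, KIF23 and KIF13A. The proportion spliced in (PSI) is the share of transcripts with the alternative exon, from 0 to 1, computed from the read counts of both forms divided by their effective lengths. Delta PSI is the mean PSI with RBFOXi minus the mean PSI with SCRM. Mean PSI of a 21-nt exon of KIF21A was 0.733 with SCRM and 0.275 with RBFOXi, and that of a 42-nt exon of KIF23 was 0.571 and 0.411. In KIF13A, mean PSI was 0.941 with SCRM and 0.759 with RBFOXi for a 39-nt exon, and 0.109 and 0.275 for a 105-nt exon. The adjusted p-values of limma were 1, 1, 1 and 0.802 in that order. No skipped exon of a dynein gene had a delta PSI beyond -0.0311 or 0.0142.

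The exons behind these values are shown because their sequence can be set beside the RBFOX motif. They were read from the GRCh37 genome, which is hg19, on the minus strand for KIF21A, KIF13A and KIF3A and on the plus strand for KIF23. Capitals mark the exon and each TGCATG in the printed intron, and the rest is intron in lower case.
KIF21A 21-nt exon, chr12:39723984-39724074: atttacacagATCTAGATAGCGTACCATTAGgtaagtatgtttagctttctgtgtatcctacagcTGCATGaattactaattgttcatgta
KIF23 42-nt exon, chr15:69717611-69717762: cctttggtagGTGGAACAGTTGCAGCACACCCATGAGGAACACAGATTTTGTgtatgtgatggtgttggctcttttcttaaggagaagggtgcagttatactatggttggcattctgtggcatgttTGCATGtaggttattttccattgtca
KIF13A 105-nt exon, chr6:17771335-17771529: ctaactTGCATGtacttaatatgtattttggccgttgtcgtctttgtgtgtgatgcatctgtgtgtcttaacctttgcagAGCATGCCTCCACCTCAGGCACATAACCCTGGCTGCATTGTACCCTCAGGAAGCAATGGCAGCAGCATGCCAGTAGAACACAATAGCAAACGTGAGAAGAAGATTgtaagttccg
KIF13A site downstream of the 105-nt exon, chr6:17771180-17771205: aatgatatttTGCATGgatgtggcca
KIF13A 39-nt exon, chr6:17790093-17790161: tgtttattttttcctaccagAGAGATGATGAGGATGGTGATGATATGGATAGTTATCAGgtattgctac
KIF3A 9-nt exon, chr5:132042123-132042171: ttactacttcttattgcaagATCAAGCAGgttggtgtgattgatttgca

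In the KIF21A intron TGCATG began at position 35 counted from the end of the exon, and in the KIF23 intron at position 75. The 105-nt exon of KIF13A lay between copies on both sides, one 68 nt before the exon and one that began at position 150 after it. The 39-nt exon of KIF13A and the 9-nt exon of KIF3A had no TGCATG within 300 nt on either side. A match to these letters is a description and not a measured site.

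The libraries did not weigh equally. The skipped exon tables held 114415530 to 136097319 counts per library, of which motor genes took 294436 in SCRM replicate 1 against 418530 to 568918 in the other libraries. Over the 44 motor genes with at least 50 such counts in each library, SCRM replicate 1 held between 0.0456 (KIF14) and 1.81 (KIF9) of the counts of SCRM replicate 2, with a median of 0.397, against a median of 0.619 over 9785 genes. The ratio of the RBFOXi libraries had a median of 0.861 in the same motor genes. Across 43 of them the SCRM ratio was lower the longer the canonical transcript (Spearman rho = -0.621, a description across genes of the same 2 libraries), as it was across 8849 genes (rho = -0.662). The RBFOXi ratio leaned the same way, less strongly (rho = -0.325 in the 43 motor genes and -0.174 in the 8849). For RBFOXi replicate 1 over SCRM replicate 2 the rho values were -0.547 and -0.476. A trend with length thus remained between the libraries when SCRM replicate 1 was left out. Delta PSI without SCRM replicate 1 is therefore given beside the values that turn most on it, and the part of this library in a result was not tested otherwise. Of the markers of the line, skipped exon events of VIM, CD44, FN1 and TNC reached between 17378 and 185009 counts per library, and the tables hold events and not expression levels.

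**Figure D1:**
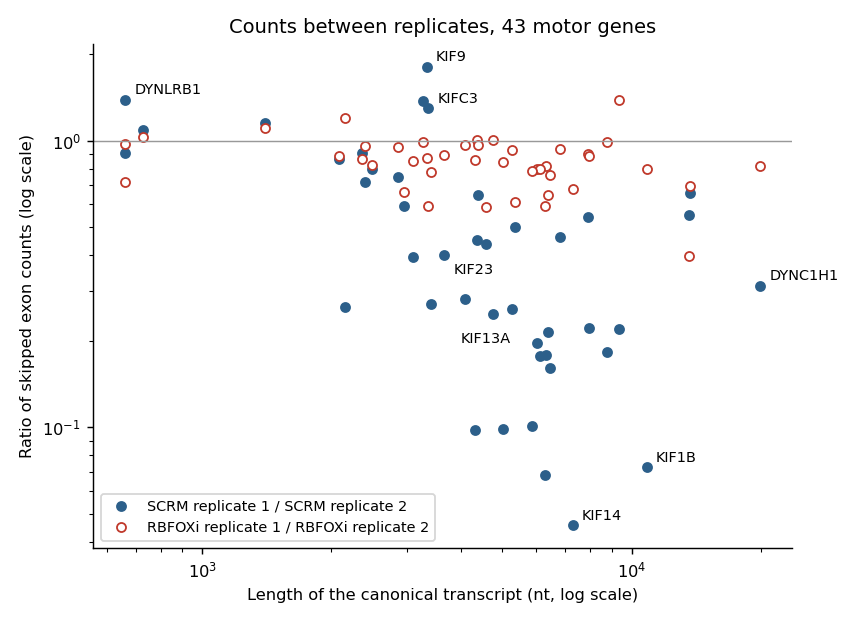
Ratio of skipped exon counts between the replicates of a group (y axis, log scale) against the length of the canonical transcript in nt (x axis, log scale), 1 point per motor gene and group for 43 genes. The SCRM ratio (filled) reached down to 0.0456 in KIF14, and the RBFOXi ratio (open) lay between 0.396 and 1.39.

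Of the 542 events, 307 in 43 genes had enough counts for the test, and 220 of the other 235 were left out because one of their forms had under 4 counts over the libraries. The events tested were 183 skipped exons, 104 mutually exclusive exons, 12 and 4 alternative 3′ and 5′ splice sites and 4 retained introns. None was called. A call needed a limma adjusted p-value under 0.05, fitted on log2 odds of inclusion, together with a delta PSI of 0.1 or more in either direction. The background of this call was 0.0682% of all tested skipped exon events (27 of 39615) and 0% in each of the other types. At an unadjusted p-value under 0.05 stood 8 of the 183 skipped exon events (4.37%, against 3.61% of all), 7 of them lower with RBFOXi (1.74% of all) and 1 higher (1.87% of all). In the other types none did, against 1.51% of all mutually exclusive exons, 3.32% of alternative 3′ splice sites, 3.59% of alternative 5′ splice sites and 1.74% of retained introns. A quasi-binomial F test called none of the 307 either, with 8 skipped exon events and 1 alternative 3′ splice site under 0.05 before adjustment. The 8 events were on 7 exons of 4 genes, KIF13A, KIF21A, KIF23 and DYNC1I2. Without SCRM replicate 1 there were 12, of which 11 were lower (6.56%, against 3.23% of all events in the same fit), and 5 of the 8 were among them. Without SCRM replicate 2 there were 14, of which 3 were lower (7.65%, against 6.43% of all), so that the direction of these counts rested on which SCRM library was kept.

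Taken 1 event per exon, 145 motor exons were tested, and their inclusion was mostly complete. Mean PSI was at least 0.9 in 112, at most 0.1 in 15 and between these in 18 (12.4%, against 17.8% of all 30617 tested exons). Lengths were a multiple of 3 in 80 of the 145 (55.2%, against 42.6% of all). The median length was 122 nt, against 120 nt over all exons. Delta PSI was below 0 in 86 and above 0 in 59, with a median of -0.000962 against -0.000133 over all exons, and without SCRM replicate 1 it was below 0 in 94. Over all 30617 exons it was below 0 in 15723 and above 0 in 14889, and without SCRM replicate 1 below 0 in 16975. It was under 0.05 in absolute size in 128 and at least 0.1 in 7, all of them kinesin exons, against 27046 and 1357 of all 30617 exons. SCRM replicate 1 had a PSI of exactly 1 in 53 of the exons, against 15 to 20 in the other libraries. Of the 183 skipped exon events, the RBFOXi libraries lay on one side of both SCRM libraries in 56 (30.6%), close to the 30.8% of all events.

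**Figure D2:**
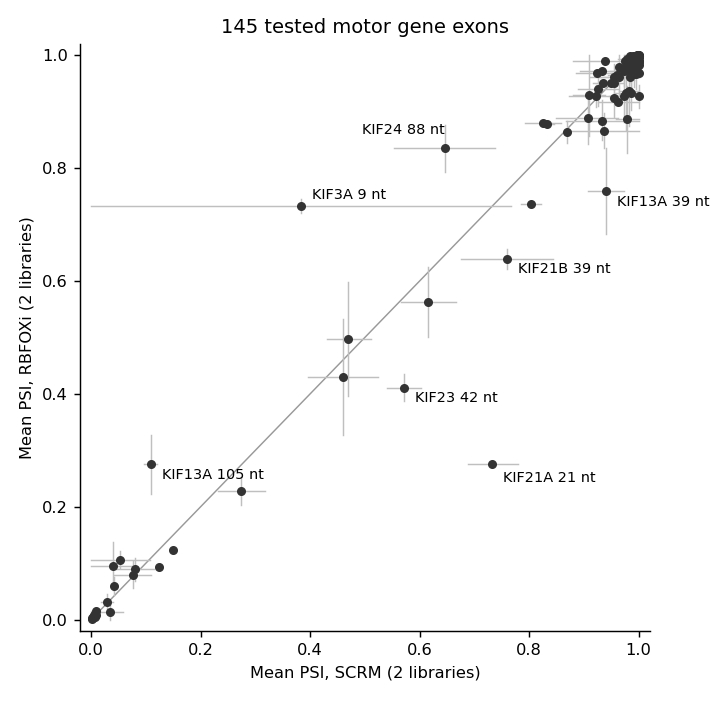
Mean PSI of the RBFOXi libraries (y axis) against that of the SCRM libraries (x axis) for the 145 tested motor exons, with lines that join the 2 libraries of a group and the diagonal of no difference. Most points sit near 0 or 1 on the diagonal, and the 7 labelled exons have a delta PSI of 0.1 or more in either direction.

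KIF21A is a kinesin-4 that curbs microtubule growth at the cell cortex. Its 21-nt exon, a coding microexon at chr12:39724044-39724064 that 5 GENCODE transcripts hold, had a PSI of 0.272 and 0.278 with RBFOXi, against 0.688 and 0.779 with SCRM. The RBFOXi values nearly coincided and lay well under both SCRM values. Delta PSI was -0.458, and -0.504 without SCRM replicate 1. The log2 odds of inclusion were lower by an estimate of -2.74 ± 0.86 (SE, n = 2 per group; limma adjusted p = 1). Few reads stood behind these values, 34 and 44 with RBFOXi, 11 and 44 with SCRM, of which 3, 4, 4 and 21 were inclusion counts. On the plain share of inclusion counts, which is not divided by the effective lengths of 14 and 54 nt, delta PSI was -0.331.

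The other 3 tested exons of KIF21A gave smaller values. A 39-nt exon with TGCATG at position 91 downstream had PSI of 0.122 and 0.0905 with RBFOXi, and of 0 and 0.107 with SCRM, so that the groups overlapped. A 129-nt exon had 0.327 and 0.533 against 0.524 and 0.396, and overlapped too. Its relative KIF21B had a 39-nt exon with PSI of 0.657 and 0.621 against 0.843 and 0.676, without overlap. Its delta PSI of -0.121 shrank to -0.0378 without SCRM replicate 1.

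KIF23, also called MKLP1, is the kinesin-6 of the central spindle and works in cytokinesis. Its 42-nt coding exon, at chr15:69717621-69717662 and in 4 transcripts, had a PSI of 0.435 and 0.387 with RBFOXi and of 0.540 and 0.602 with SCRM. The groups did not overlap, and the gap between them was larger than the gap within either. Delta PSI was -0.160 (-0.191 without SCRM replicate 1), on 86 to 484 counts per library. The log2 odds changed by -0.93 ± 0.36 (SE; limma adjusted p = 1).

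A 312-nt exon of KIF23, at chr15:69733107-69733418, had the most reads of any motor exon of intermediate inclusion, 876 to 1541 per library. Its PSI was 0.252 and 0.203 with RBFOXi and 0.317 and 0.231 with SCRM, which overlapped. Delta PSI was -0.0465, and -0.00347 without SCRM replicate 1. Both introns next to it held no TGCATG. The 12 tested events of KIF23 ranged from -0.160 to 0.0217 in delta PSI.

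KIF13A, a kinesin-3 that carries endosomal and trans-Golgi vesicles towards the plasma membrane, gave 4 of the 8 events under 0.05 before adjustment. The 105-nt exon at chr6:17771345-17771449, near the 3′ end of the gene, had a PSI of 0.223 and 0.327 with RBFOXi and of 0.0969 and 0.121 with SCRM. Both RBFOXi values were above both SCRM values, and it was the only one of the 8 events that was higher. Delta PSI was 0.166 (0.154 without SCRM replicate 1), and the log2 odds changed by 1.60 ± 0.43 (SE; limma adjusted p = 0.802), on 94 to 294 counts per library. Between the RBFOXi libraries the Cy5-labelled one was the lower of the pair.

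The 39-nt exon of KIF13A, at chr6:17790103-17790141, had a PSI of 0.836 and 0.683 with RBFOXi and of 0.974 and 0.908 with SCRM, measured against the 147-nt exon that precedes it. Delta PSI was -0.182 (-0.148 without SCRM replicate 1), and the log2 odds changed by -2.26 ± 0.68 (SE; limma adjusted p = 1), on 29 to 150 counts per library. The lowest of these, 29, was SCRM replicate 1, with 1 skipping count. The 147-nt exon, at chr6:17794480-17794626, had 0.947 and 0.907 with RBFOXi and 1 in both SCRM libraries, a delta PSI of -0.0732. Its skipping counts were 4 and 10 with RBFOXi and 0 in both SCRM libraries, on 42 to 274 counts per library. On the plain share of inclusion counts its delta PSI was -0.0302. In both exons the RBFOXi values lay under the SCRM values.

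Read as a mutually exclusive pair, the inclusion form with the 147-nt exon had 0.496 and 0.693 with RBFOXi and 0.419 and 0.488 with SCRM. The RBFOXi values lay above both SCRM values, with a delta PSI of 0.141 (0.106 without SCRM replicate 1; limma adjusted p = 1). These events share reads, so they are not separate measurements. Both exons were mostly included as skipped exons, so the value of the pair compares their reads and is not a share of transcripts. The 18 tested events of KIF13A ranged from -0.182 to 0.166.

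**Figure D3:**
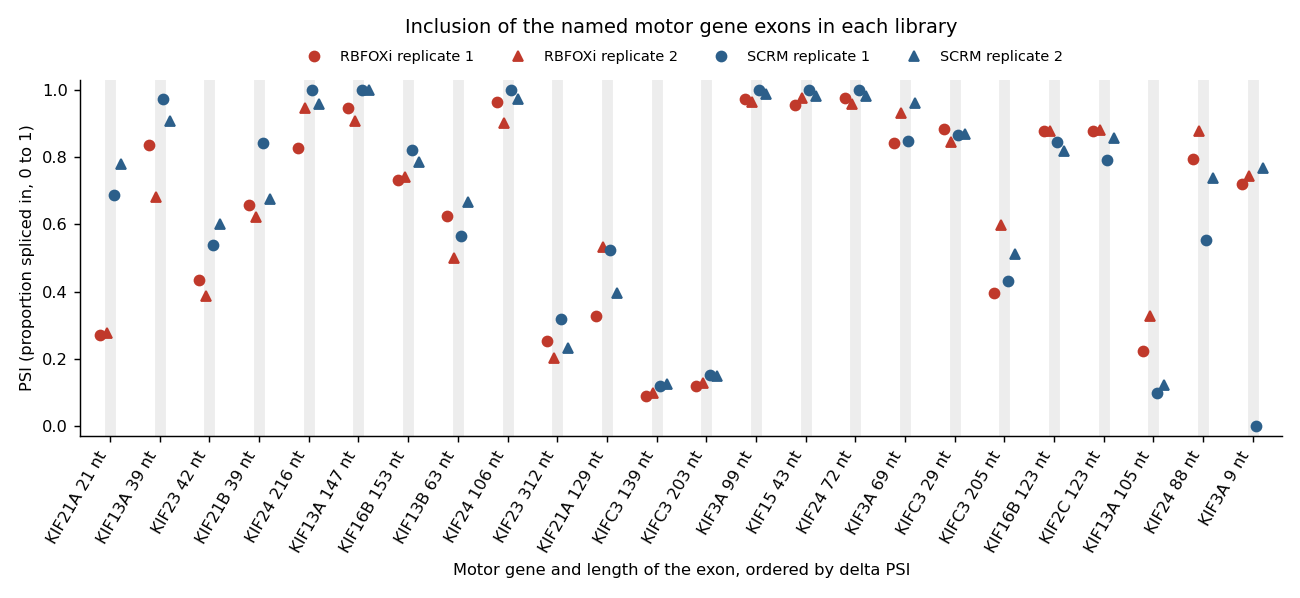
PSI (y axis, 0 to 1) in each of the 4 libraries for the 24 named skipped exons of motor genes (x axis, gene and exon length), ordered from the lowest to the highest delta PSI. The 21-nt exon of KIF21A stands at 0.272 and 0.278 with RBFOXi against 0.688 and 0.779 with SCRM, and the 9-nt exon of KIF3A at 0 in SCRM replicate 1 alone.

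In the kinesin-2 family, KIF3A forms with KIF3B the motor that carries cargo along cilia. Its 9-nt coding exon, at chr5:132042143-132042151, had a PSI of 0.721 and 0.745 with RBFOXi and of 0 and 0.767 with SCRM. The largest positive delta PSI of any motor exon, 0.349, came from SCRM replicate 1 alone, and without it the value was -0.0340. Inclusion counts were 6, 8, 0 and 11, on an effective length of 4 nt. A 99-nt KIF3A exon with TGCATG at position 60 downstream had 0.975 and 0.964 against 1 and 0.990.

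Of the other kinesin-3 genes, KIF16B, an endosomal kinesin, had a 123-nt exon at 0.879 in both RBFOXi libraries and at 0.845 and 0.819 with SCRM. Its 153-nt exon had 0.731 and 0.741 against 0.821 and 0.785. The groups of both exons did not overlap, with delta PSI of 0.0468 and -0.0668 (0.0602 and -0.0489 without SCRM replicate 1; limma adjusted p = 1 for both). Skipping counts were 1 to 4 per library for the 123-nt exon and 5 to 18 for the 153-nt exon. On the plain share of inclusion counts the delta PSI values were 0.016 and -0.0346. KIF1B, which carries synaptic vesicle precursors and mitochondria in neurons, had 5 tested exons with delta PSI from -0.0297 to 0.0168. A 63-nt exon of KIF13B had 0.625 and 0.5 against 0.566 and 0.666, and overlapped.

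Among the kinesin-13 depolymerases, a 123-nt exon of KIF2C had a PSI of 0.879 and 0.882 with RBFOXi and of 0.793 and 0.858 with SCRM. Its delta PSI was 0.0550, and 0.0227 without SCRM replicate 1. KIF24, a centriolar kinesin, gave 9 tested exons from -0.0925 to 0.190. The highest of these, an 88-nt exon, had 0.794 and 0.877 against 0.553 and 0.738 on as few as 10 counts in a library, and its delta PSI of 0.190 became 0.0972 without SCRM replicate 1. KIF2A had 3 tested exons from -0.0170 to 0.00149.

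KIFC3, a kinesin-14 that moves towards the minus end, had the most tested events of any motor gene, 40, and its SCRM libraries were the other way round in depth (a ratio of 1.30). A partly coding 203-nt exon at chr16:57819376-57819578 had a PSI of 0.118 and 0.128 with RBFOXi and of 0.150 and 0.147 with SCRM, on 654 to 974 counts. A 139-nt untranslated exon at chr16:57822487-57822625 had 0.0895 and 0.0970 against 0.120 and 0.125. In both exons the RBFOXi libraries lay under the SCRM libraries, by a delta PSI of -0.0257 and -0.0296 (limma adjusted p = 1 for both). Both are counted against the same skipping reads, so they are not separate measurements, and on the plain share of inclusion counts the values were -0.0526 and -0.0613.

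The mitotic kinesins other than KIF23, which build and move the spindle, had delta PSI from -0.0316 to 0.00414 over their tested exons. The exon of KIF11, the kinesin-5 that slides spindle microtubules apart, had -0.00747. The 43-nt exon of KIF15 had -0.0243, and those of KIF22 and KIF20A lay between -0.000980 and 0.00157. In the kinesin-8 genes KIF18A and KIF18B, which act at the plus ends of spindle microtubules, the 4 tested exons had delta PSI from 0.0125 to 0.0441. The gap between replicates, taken for each exon in the group where it was larger, had a median of 0.0752. Without SCRM replicate 1 the KIF18B values became -0.0213 and -0.000180 and those of KIF18A 0.00511 and 0.00380.

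Conventional kinesin was represented by 3 tested exons of KIF5B and KIF5C, from -0.00565 to 0.00155, and by 3 of the light chains KLC2 and KLC4, from -0.0450 to -0.00131. KLC1 and KIF5A were not analysed here.

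Cytoplasmic dynein contributed 79 tested events and 29 tested exons of 10 genes. Mean PSI was at least 0.9 in 28 of the 29 exons and under 0.1 in the other. Delta PSI lay between -0.0311 and 0.0142. The gap between replicates, taken for each exon in the group where it was larger, had a median of 0.00319, against 0.0203 for the 116 kinesin exons. The heavy chain DYNC1H1, the motor subunit, had 7 tested exons with delta PSI from -0.00209 to 0.000424 on up to 11059 counts per library.

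The intermediate chain DYNC1I2, which joins the heavy chain to dynactin, held the other 2 events under 0.05 before adjustment. They are exons of 91 and 145 nt that share their 3′ end at chr2:172563887. The longer had a PSI of 0.977 and 0.982 with RBFOXi and of 1 and 0.993 with SCRM, and the shorter 0.989 and 0.991 against 1 and 0.997. The groups did not overlap, with delta PSI of -0.0174 and -0.00882. Both exons had the same skipping counts, 11 and 9 with RBFOXi and 0 and 4 with SCRM, so they are not separate measurements. Without SCRM replicate 1 the unadjusted p-values were 0.0981 and 0.0856. A 60-nt exon of DYNC1I2 stayed under 0.01 in all 4 libraries, from 0.00341 to 0.00751. Of its relative DYNC1I1 neither of 2 events had enough counts. The light chains DYNLL1, DYNLL2, DYNLRB1 and DYNLT1, which are shared with other complexes, gave 6 exons from -0.00101 to 0.00510, and the light intermediate chains 10 from -0.0311 to 0.0142. The last value, of DYNC1LI2, became -0.00271 without SCRM replicate 1.

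**Figure D4:**
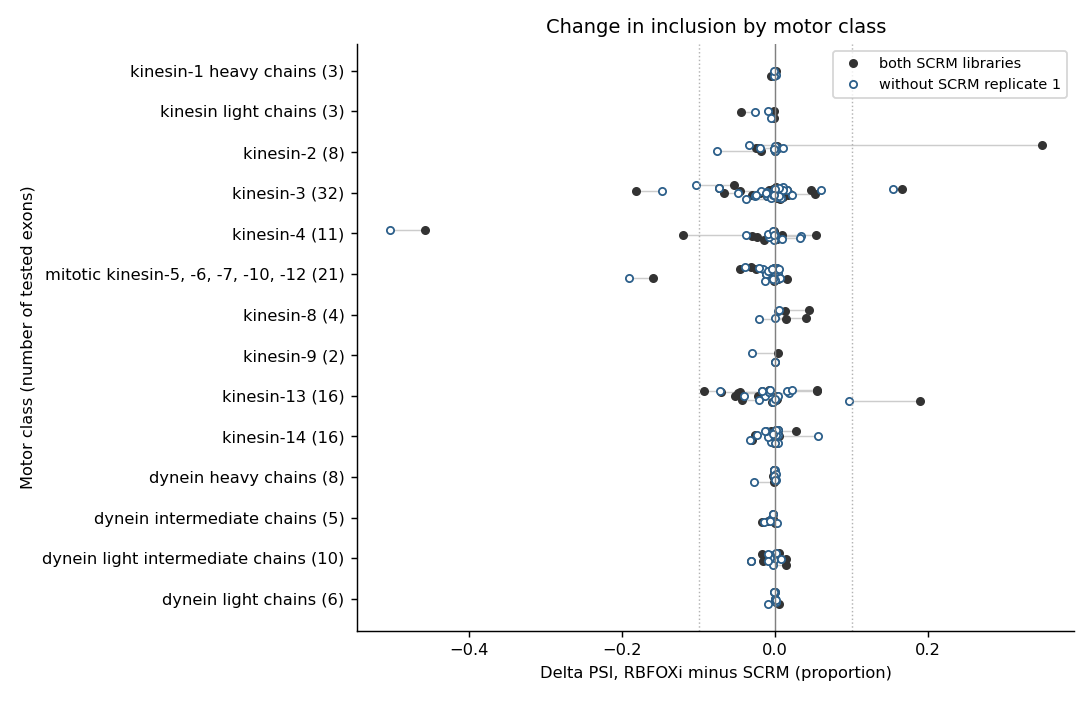
Delta PSI (x axis, RBFOXi minus SCRM) of each tested motor exon by motor class (y axis, with the number of exons), with both SCRM libraries (filled) and without SCRM replicate 1 (open, joined by a line), and dotted lines at 0.1 either side of 0. The dynein classes stay between -0.0311 and 0.0142, and the KIF3A point at 0.349 crosses 0 when SCRM replicate 1 is left out.

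Among the mutually exclusive exons, the RBFOXi libraries lay on one side of both SCRM libraries in 38 of 104 events (36.5%, against 24.4% of all such events). Events of a gene can share exons and reads, as the 11 of DYNC1I2 did, so they are not separate measurements. The difference between these shares was not tested. None passed the test. For a 108-nt exon of KIF21A paired with one of 137 nt, PSI was 0.459 and 0.476 with RBFOXi and 0.205 and 0.421 with SCRM, and the delta PSI of 0.155 became 0.0470 without SCRM replicate 1. The same exons with other flanks had the largest delta PSI of any motor pair, at 0.808 and 0.798 against 0.367 and 0.751 on 18 to 119 counts, and the value of 0.244 became 0.0518 without SCRM replicate 1. Of the dynein pairs, a 117-nt exon of DYNC1I2 paired with one of 118 nt had 0.610 and 0.642 against 0.499 and 0.610, a delta PSI of 0.0716 that became 0.0164. As skipped exons, the 117-nt exon had a PSI of 0.995 to 1 and the 118-nt exon of 0.987 to 0.998. Both were thus nearly always included, and the value of the pair compares their reads and is not a share of transcripts. A 105-nt exon of KIF5B, the widely expressed conventional kinesin, paired with one of 49 nt had 0.749 and 0.776 against 1 and 0.799. Its delta PSI went from -0.137 to -0.0367 without SCRM replicate 1, which had 21 counts on the event against 250 to 509 in the other libraries. The exons of these KIF21A and KIF5B pairs were not among the tested skipped exons, and the 137-nt exon of KIF21A was also paired with one of 181 nt. That these pair values are shares of transcripts was therefore not established.

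In the remaining types, the RBFOXi libraries lay on one side in 3 of 12 alternative 3′ splice sites (30.8% of all), in 0 of 4 alternative 5′ splice sites (30.1% of all) and in 3 of 4 retained introns (27.9% of all). An alternative 3′ splice site of the light chain gene KLC2, which adds 37 nt, had a PSI of 0.179 and 0.178 with RBFOXi and of 0.186 and 0.206 with SCRM. Retention of a KIF18B intron of 227 nt stood at 0.908 and 0.853 against 0.848 and 0.850. Retention in DYNC1H1 stayed under 0.005 in every library, from 0.00110 to 0.00405.

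The RBFOX motif was searched as TGCATG on the strand of the gene, with no other letters, and lay within 300 nt downstream of 12 of the 145 motor exons (8.28%, against 8.36% of all tested exons). Upstream it lay within 300 nt of 14 (9.66%, against 8.16%). Of the 12 exons with a downstream copy, 4 had a delta PSI below 0 and 8 above, from -0.458 to 0.166 with a median of 0.00831. Without SCRM replicate 1 the order turned, with 8 below 0 and a median of -0.00671. Over all 2559 such exons 1488 were below 0 and the median was -0.00126. Of the 14 motor exons with an upstream copy 10 were below 0, with a median of -0.00417, against 1235 of 2497 and a median of 5.13e-05 over all exons with an upstream copy. The exons with a downstream copy included the 21-nt exon of KIF21A, the 42-nt exon of KIF23 and the 105-nt exon of KIF13A, which were 3 of the 7 motor exons under 0.05 before adjustment. The set with an upstream copy also held 3 of the 7, both DYNC1I2 exons and the 105-nt exon of KIF13A. The DYNC1I2 exons overlap, share their skipping reads and have the same upstream copy, so they are not separate measurements. Over all exons 185 of the 2559 with a downstream copy and 128 of the 2497 with an upstream copy were under 0.05. The other exons with a downstream copy ranged from -0.0253 (KIF3A) to 0.0529 (KIF21A, 39 nt) in delta PSI.

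Of 40 partner genes of the motors, dynactin subunits, dynein regulators and cargo adaptors, 32 had a tested event. Of their 272 tested events 1 was called, a skipped exon of SPAG9, also called JIP4, an adaptor of kinesin-1 and dynein. Its PSI was 0.361 and 0.258 with RBFOXi and 0.853 and 0.818 with SCRM (delta PSI -0.526, limma adjusted p = 0.00132). SPAG9 and NUMA1 were listed with their changes already known from earlier results of these data, so the SPAG9 call was not an independent result. Of the 151 tested skipped exon events of the partners 1 was called, against 27 of 39615 (0.0682%) among all tested skipped exon events.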

How the data were processed

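RNA-seq of U87MG cells was compared between RBFOXi and SCRM, with 2 libraries each, grouped by the transfection label. Per the labels, the authors aligned reads with STAR 2.4.2a to hg19. They then ran rMATS, whose deposited tables hold, for each splicing event, whole-number read counts of both forms in each library, and the lengths that each form is read over. The deposited p-values, false discovery rates and inclusion differences were not used. PSI was recomputed from the counts and lengths. An event was tested if no library had under 5 counts, the mean over libraries reached 20 and each form had 4 in all. The test was made with limma 3.58.1 (R 4.3.3) on log2((inclusion + 0.5)/(skipping + 0.5)), with Benjamini-Hochberg adjustment over all events of a type. Calls needed an adjusted p-value under 0.05 and a delta PSI of 0.1 or more in either direction. The script was tested on simulated data. For overlapping events of 1 exon, 1 event was kept in exon counts. Exons named singly were the 15 with the largest absolute delta PSI among non-overlapping exons with a mean of 50 counts, those with mean PSI between 0.1 and 0.9, by the same rule the 3 largest of each other event type, with 1 event per alternative region, and genes of a fixed list; further exons were chosen after their values were seen. Motor genes and gene lists were chosen with earlier results of these data known. The study's methods describe the 2 libraries of a group as independent biological replicates, which the labels do not state. Annotation was GENCODE 44 on GRCh37.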

Additional observations from a re-analysis of the deposited data

How the results depend on the processing

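Each group had 2 libraries, and tested exons had as few as 5 counts in a library. The edgeR alternative was not run, since the tables hold counts of 2 forms in joined cells. The quasi-binomial F test was added after seeing the data, and gave no finite value for the KIF13A 147-nt exon. Among motor genes the skipped exon calls stayed at 0 under the other pseudocounts, filters, centring, thresholds and left-out libraries. With the replicate number as a block, 2 were called, both in KIF13A (limma adjusted p = 0.0128 and 0.0456), among 119 of 39615 events, against 27 without the block. Among the partner genes the block called 4 events, of NUMA1, PLEKHM2 and SPAG9. The titles of same-numbered libraries share an ending whose meaning is not stated. The numbers were not established as a pairing. Over the 39615 skipped exon events, the differences between replicates 1 and 2 in the 2 groups correlated at 0.0944. In the other event types the correlation lay between 0.0836 and 0.118. With 2 libraries per group these values cannot settle whether the numbers are pairs. The block also called 77 of 26176 mutually exclusive exons, against 0 without it, and 0 of the 77 were in motor genes. Calls of mutually exclusive exons ranged from 0 to 5 with 1 library left out, the 5 (DYNC1H1, DYNC1I2, KIF21A) without SCRM replicate 2, where 1400 of all 26176 were called. The median delta PSI of the exons stayed between -0.00189 and -0.000248. Of 379 log2 odds differences of the 33 named events under alternatives, 358 kept direction and side of the threshold, 18 reversed and 3 passed it. With a pseudocount of 1 the KIF15 43-nt exon went from -0.403 to 0.0149 and the KIF24 72-nt exon from -0.21 to 0.0986, and with the quasi-binomial test the KIF21A 129-nt exon from -0.166 to 0.164. With 1 library left out, the log2 odds difference ran from -0.682 to 0.0511 for KIF13B 63 nt, from -0.877 to 0.0701 for KIF15 43 nt, from -0.773 to 0.442 for KIF21A 129 nt, from -0.852 to 0.433 for KIF24 72 nt and from -1.37 to 0.353 for KIF24 216 nt. It ran from -1.42 to 0.631 for KIF3A 69 nt, from -0.226 to 3.14 for KIF3A 9 nt, from -0.279 to 0.209 for KIFC3 29 nt and from -0.35 to 0.767 for KIFC3 205 nt. The cause was not tested.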
